A study of Mus musculus with 4 samples.

Results

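Slug, encoded by Snai2, and Snail, encoded by Snai1, are zinc finger transcription factors that bind the E-box CAGGTG and mostly repress the genes they regulate. Both are known for driving the epithelial-mesenchymal transition (EMT), and Slug is also a factor of basal and stem cells of the mammary gland. Factors of this kind are found at promoters and also far inside genes, where introns can hold enhancers. The sites described here are the high-scoring Slug peaks that lie inside gene bodies, away from the ends of genes, and overlap no Snail peak. A row of the Slug peak list was taken when its score was 200 or more, when it shared no base with any Snail peak, and when its midpoint lay inside an annotated gene and more than 1 kb from the ends of every gene. This gave 3102 of the 41612 Slug peaks (7.45%, 95% Wilson interval 7.21 to 7.71).

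The peaks came from chromatin immunoprecipitation with sequencing (ChIP-seq) of 2 mouse MMTV-PyMT breast cancer cell lines. MMTV-PyMT names a transgene that expresses the polyoma middle T oncogene from a mammary tumour virus promoter. Slug was mapped in the epithelial line pBl.1G, which expresses Slug highly, and Snail in the mesenchymal line pBl.3G, which expresses Snail highly. Neither line received a treatment, and whether each line is a single clone is not stated in the labels. Slug chromatin was pulled down with Slug (C19G7) Rabbit mAb. For Snail, the label names an Anti-SNAIL + SLUG antibody, so by its name that antibody may bind either factor. There was 1 library of each, so factor, cell line and antibody cannot be told apart. The study set out to learn why these factors differ in their ability to switch on EMT. An absent overlap means here that the Snail list held no peak at that place. Intervals below are 95% intervals that cover counting error only and treat peaks or genes as independent, and no p-value can be given with 1 library a factor. Positions are on mm10.

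Of the Slug peaks, 6898 scored 200 or more, and 5523 of these overlapped no Snail peak. The score is the authors' own value from the peak caller and ranks peaks within the Slug list only. Inside genes and away from every end lay 56.2% of the 5523 peaks (54.9 to 57.5), while 6.88% lay within 1 kb of a gene end and 37.0% between genes. The share inside genes was 49.1% for all Slug peaks and 49.6% for those under 200 without Snail overlap. For peaks of 200 or more that overlapped a Snail peak it was 43.6%. The sites were chosen by score, by overlap and by position, so these values describe them and test nothing. The median score was 288, with quartiles of 236 and 377.5. The 3 sites just above the threshold lay in Cdh4, Sorl1 and Flacc1, with scores of 200.07, 200.08 and 200.09. Peaks just below it lay in Ash1l and Sorcs2, with scores of 199.98 and 199.97. In the same kind of place 235 peaks scored between 200 and 210 and 273 between 190 and 200, so the threshold cuts through a continuous range. At the top, 336 sites scored 500 or more and 33 scored 1000 or more.

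The only sequence that could be read at these sites was where a peak reached an annotated start site. The RefSeq table used here holds 32851 start windows on build GRCm38.p6, the assembly of mm10, each from 250 bases before a start to 50 after it. Of these starts, 4728 lay inside a gene and more than 1 kb from every gene end. Only 9 of the high-scoring inner Slug peaks touched any start window, and 8 of those windows belonged to such inner starts. Lower-scoring Slug-only peaks inside genes touched 25 windows of inner starts. The median distance from a site to the nearest annotated start was 25.4 kb (24.3 to 27.1) among the 2988 sites on the chromosomes whose start windows were analysed here, and 25 of them (0.837%) lay within 1 kb of one. For 4 of the 9 peaks at least 100 bases of the window fell inside the peak, and that stretch is shown because it is the sequence under the peak. Each is written from 5′ to 3′ on the strand of the gene, with CAGGTG or its reverse complement CACCTG in capitals.

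Tmem184a, minus strand, chr5:139814234-139814513: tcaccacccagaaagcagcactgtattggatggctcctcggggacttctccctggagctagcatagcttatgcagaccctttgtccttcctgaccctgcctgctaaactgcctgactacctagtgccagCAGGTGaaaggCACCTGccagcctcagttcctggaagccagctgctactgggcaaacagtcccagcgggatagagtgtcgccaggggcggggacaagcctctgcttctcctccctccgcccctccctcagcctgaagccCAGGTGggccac
Prickle1, minus strand, chr15:93519471-93519636: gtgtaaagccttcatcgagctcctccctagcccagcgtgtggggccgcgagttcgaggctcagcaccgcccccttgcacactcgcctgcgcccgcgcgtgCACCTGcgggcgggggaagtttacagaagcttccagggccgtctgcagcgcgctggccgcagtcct
Gramd1c, minus strand, chr16:44027896-44028151: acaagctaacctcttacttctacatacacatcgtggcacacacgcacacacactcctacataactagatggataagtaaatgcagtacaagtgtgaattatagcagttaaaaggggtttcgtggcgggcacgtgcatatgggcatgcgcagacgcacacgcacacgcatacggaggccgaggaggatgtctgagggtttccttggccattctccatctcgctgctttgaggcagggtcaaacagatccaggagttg
Gm38597, plus strand, chr19:56980667-56980874: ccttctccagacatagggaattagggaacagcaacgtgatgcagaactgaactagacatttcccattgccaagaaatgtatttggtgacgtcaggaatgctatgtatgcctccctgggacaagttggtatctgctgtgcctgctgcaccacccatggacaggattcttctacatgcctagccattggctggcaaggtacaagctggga

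The Tmem184a stretch, at an inner start of a gene for a transmembrane protein, held 3 copies of the E-box, the nearest centred 17 bp from the midpoint of the peak. That peak had a score of 230 and a width of 319 bp. The Prickle1 stretch held 1 copy, 14 bp from the midpoint of a peak with a score of 362. Prickle1 is a planar cell polarity gene, and the nearest Snail peak began only 174 bp from this Slug peak. Neither Gramd1c, whose peak scored 295, nor Gm38597, a transcript inside the actin filament-associated gene Afap1l2 whose peak scored 529, had the E-box in the stretch shown. Over whole windows, 2 of the 9 touched by a peak held CAGGTG on either strand (22.2%, 6.32 to 54.7). In the windows touched by lower-scoring peaks the count was 8 of 25 (32.0%, 17.2 to 51.6), and among all 32851 windows the share was 20.2%. The interval from 9 windows includes the share of all windows, so these few windows resolve no difference. In the windows not printed above the peak covered at most 78 bases. Counts over whole windows, here and below, thus read mostly sequence outside the peak in those windows. Other motifs, none of which contains another or the E-box, were searched on both strands in the same 9 windows. TGANTCA (AP-1), AACCNGTT (GRHL) and TGTTTAC (FOX) were in none of them, against 7.81%, 2.09% and 3.65% of all windows. GGAATG (TEAD) was in 2, TGTGGT (RUNX) in 3 and GGGCGG (SP and KLF) in 4, against 14.7%, 16.8% and 35.7% of all windows. A letter match is a description and not a bound site.

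The sites were spread over many genes. Of the 3102 peaks, 2956 lay inside a single gene and 146 inside overlapping genes. A protein-coding gene held 2718 of them, and 384 lay only in genes of other kinds. By gene, 2188 protein-coding genes and 454 lncRNA genes held at least 1. No share of all lncRNA genes is given here, so that count cannot be read as many or few. The extreme was a peak at chr18:37698639-37698915 with a score of 423, which lay inside 10 overlapping gene spans of the gamma protocadherin cluster, among them Pcdhga1 and Pcdhgb1. Of the 19211 protein-coding genes with sequence more than 1 kb from every gene end, called inner sequence below, 11.4% held a high-scoring Slug-only peak, and 2.11% held 2 or more.

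Host genes tended to be long. The median host was 91.1 kb long (86.1 to 96.2), against 21.5 kb (21.1 to 22.0) for all 19211 genes. When genes were split into 10 equal classes by length, 0.416% of the shortest class and 45.0% of the longest class, from 120 kb upwards, were hosts. Relative to the inner sequence available, the longest genes instead had fewer sites. Genes of the longest class held 2.31 sites per Mb of inner sequence (2.19 to 2.44), whereas the other classes together held 3.41 (3.24 to 3.59). For Slug-only peaks with scores under 200 the densities were 12.9 per Mb in the longest class and 14.3 in the others. In the longest class 15.2% of inner Slug-only peaks reached a score of 200, and in the other classes the share lay between 15.7% and 25.8%, with no steady trend.

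**Figure D1:**
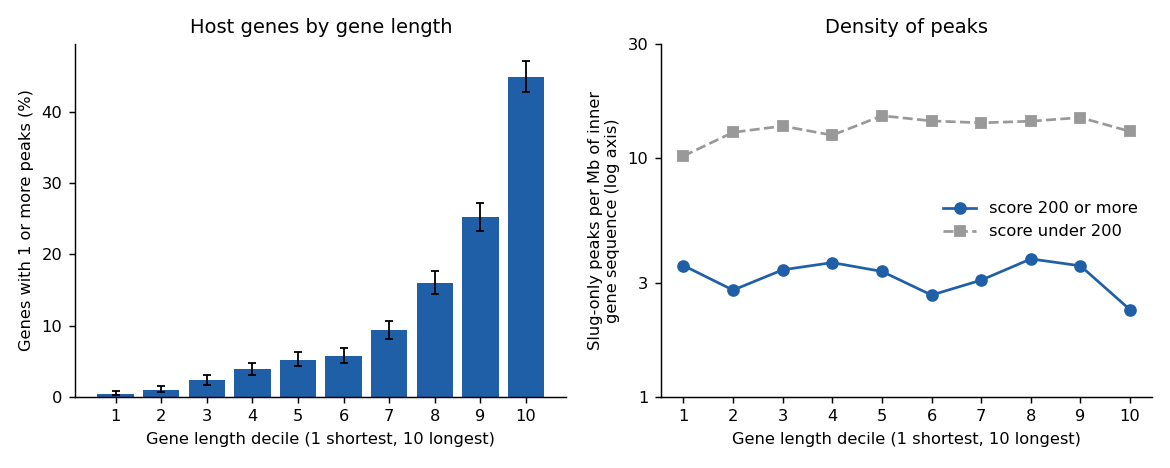
Left, share of protein-coding genes that held at least 1 Slug-only peak of score 200 or more inside the gene, by gene length decile, with 95% Wilson intervals; it reached 45.0% in the longest decile. Right, Slug-only peaks per Mb of inner gene sequence on a log axis, for scores of 200 or more and under 200; the high-scoring density was lowest, at 2.31, in the longest genes.

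Gene bodies carried more of these peaks per Mb than the space between genes. High-scoring Slug-only peaks numbered 2.71 per Mb of inner gene sequence (2.61 to 2.80) and 1.47 per Mb of sequence between genes (1.402 to 1.53), a ratio of 1.85. For scores under 200 the ratio was 1.38, with 13.4 peaks per Mb inside genes and 9.74 between them. The sites were not even over chromosomes. On the autosomes they numbered 2.79 per Mb of inner gene sequence (2.69 to 2.89), against 1.03 (0.767 to 1.35) on the X chromosome, where only 51 sites lay. The autosomes thus had 2.71 times the density of the X (2.05 to 3.57). At scores of 300 or more the value was 4.16 times (2.5 to 6.92), and the intervals overlap. Lower-scoring peaks were also sparser on the X, 13.8 per Mb on autosomes against 6.54. The share of inner Slug-only peaks that reached a score of 200 was 16.8% on autosomes (16.3 to 17.4) and 13.6% on the X (10.5 to 17.4), with overlapping intervals. Among autosomes chromosome 11 was the densest, at 3.63 per Mb, and chromosome 14 the sparsest, at 1.86. No site lay in the 2.73 Mb of inner gene sequence on the Y.

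**Figure D2:**
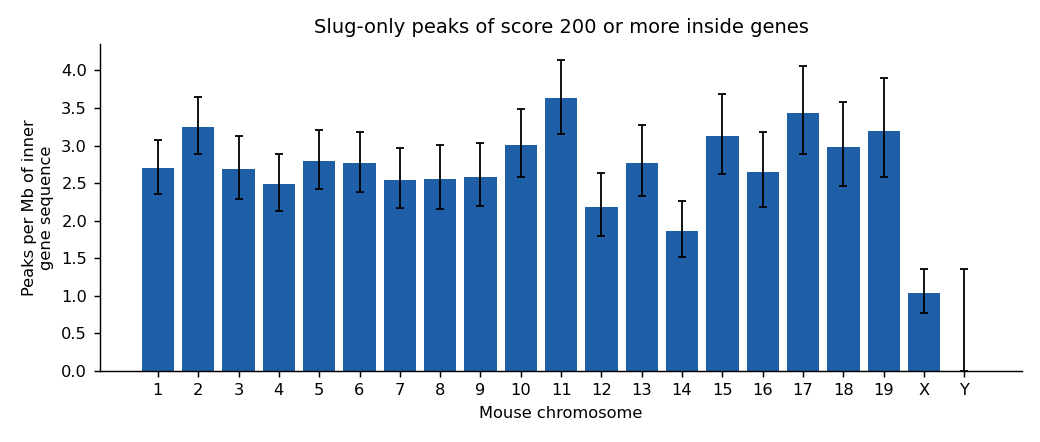
Slug-only peaks with a score of 200 or more per Mb of inner gene sequence on each mouse chromosome, with exact 95% Poisson intervals. Chromosome 11 stood highest at 3.63, chromosome X at 1.03, and chromosome Y had none.

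Within genes the sites were spread along the whole span. The median distance from a site to the nearest gene end was 12.4 kb (11.6 to 13.1), and 777 of the 3102 lay within 5 kb of one (23.6% to 26.6%). The lower-scoring Slug-only peaks inside genes lay slightly farther away, at 14.2 kb (13.7 to 14.6), with 23.0% within 5 kb (22.3 to 23.6). These distances count the ends of every annotated gene, nested ones included. With protein-coding genes alone the median for the high-scoring sites was 21.2 kb. Of the 2012 sites inside a single protein-coding gene with a known strand, 53.2% lay nearer the 5′ end of the gene than its 3′ end (51.1 to 55.4), against 51.8% of 9696 lower-scoring peaks (50.8 to 52.8). When each gene was cut into 10 equal stretches, the first and the last, parts of which were closed by the 1 kb limit, held 8.75% and 8.05% of the sites. The other stretches held between 8.95% and 11.4%. Across the 3102 peaks, score and distance to a gene end were unrelated (Spearman correlation -0.01, a description across peaks of 1 library). The median width of the sites was 277 bp (275 to 279), and 147 exceeded 500 bp. Slug peaks of 200 or more inside genes that overlapped a Snail peak had a median width of 420 bp (397 to 440). Their median score, 413, was also higher. Width followed score across the sites, with a Spearman correlation of 0.30, and lower-scoring peaks had a median width of 191 bp. Both values come from the same reads, so this is no independent feature.

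Most host genes held 1 site and some held several. Of the 2188 protein-coding hosts, 1782 held 1, 303 held 2 and 103 held 3 or more (18.6% with 2 or more, 17.0 to 20.2). Those 406 genes accounted for 958 of the sites. Neighbouring sites in a gene were far apart, with a median spacing of 46.2 kb (37.8 to 55.5), and 31 of 556 spacings were under 5 kb. Only 176 of the 3102 sites (5.67%) had another within 10 kb. The number per gene followed length, with a median of 76.5 kb for hosts of 1 site and 365 kb for hosts of 3 or more.

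Among protein-coding genes Robo1 and Rbms3 had the most sites, 6 each. Robo1 encodes a receptor for Slit guidance proteins and spans 1020 kb. Its sites scored 236, 263, 285, 309, 603 and 361 from its 5′ end onwards, and 5 of the 6 lay more than 600 kb downstream of that end. There were 15 further Slug peaks in the gene, all below the threshold, and no Snail peak inside it or at its ends. In Rbms3, which encodes an RNA-binding protein and spans 1057 kb, the strongest sites scored 637, 606 and 596, and the other 3 between 218.8 and 240.03. That gene held 38 Slug peaks in all, 1 of which overlapped a Snail peak. Nckap5, Tnik and Osbpl3 had 5 sites each and were the next by the score of their best one, 659, 543 and 421. Tnik encodes a kinase of the Wnt and JNK pathways, and Osbpl3 an oxysterol-binding protein family member. The sites of Osbpl3 lay in a gene of only 163 kb and included 1 at 402 bp from a Snail peak, at chr6:50311953-50312196 with a score of 349.

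Hosts with 3 or more sites in little space were led by Tmem144, Cdcp1, Pmepa1, Fbln2 and Ep300. Each had 3, in spans between 40.2 kb and 65.9 kb. Cdcp1 encodes a membrane protein phosphorylated by Src family kinases, and its sites scored 415, 374 and 223. Pmepa1 encodes an inhibitor of TGF-beta signalling that the pathway itself induces, with scores of 273, 267 and 206. Fbln2 encodes the matrix protein fibulin 2 and had scores of 410, 296 and 258. In Ep300, the gene of the histone acetyltransferase p300, the scores were 332, 317 and 250. A Snail peak stood at an end of that gene, and its score of 1296 in the Snail list cannot be compared with Slug scores. Of the Tmem144 sites 2 lay directly beside each other, at chr3:79843627-79843922 and chr3:79843925-79844115, with scores of 289 and 221, and the nearest Snail peak was 585 bp from the first.

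The highest-scoring sites in protein-coding genes lay in genes of varied function, and sites in non-coding genes alone are passed over in this order. Zfp516, a zinc finger gene, held the site with the top score of all the sites described here, 2152, at chr18:82952542-82953364. Amz2, a metallopeptidase gene, came next among protein-coding hosts, with 1723 at chr11:109431185-109431692, the only Slug peak inside it. Slc30a10, which encodes a manganese exporter, held 1 at chr1:185458125-185458776 with a score of 1600.5, and had no Snail peak inside or at its ends. Eya2, a transcriptional coactivator and phosphatase gene, had a score of 1513 at chr2:165692775-165693593, and 3 weaker sites of 372, 216 and 210. Of its 18 Slug peaks, 1 overlapped a Snail peak. The others of the top 10 protein-coding hosts were Sergef, the chondroitin sulfotransferase gene Chst11, the palmitoyltransferase gene Zdhhc14, Zfp420, Mfsd13b and Pdzd2, with best scores of 1501, 1420, 1388, 1386, 1322 and 1255. In 5 of these 10 genes, namely Amz2, Zfp516, Zdhhc14, Zfp420 and Mfsd13b, a Snail peak stood within 1 kb of a gene end, a share near the 57.7% of all protein-coding hosts.

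The rule had removed every Slug peak that overlapped a Snail peak, among them 599 inside genes with a score of 200 or more. Closeness to Snail peaks was thus limited by the choice of sites, and the gaps describe only the peaks left. The median gap to the nearest Snail peak was 23.9 kb (21.9 to 25.6), against 29.95 kb (29.1 to 31.0) for the lower-scoring Slug-only peaks inside genes. Within 1 kb lay 123 sites (3.97%, 3.33 to 4.71), a share that lower-scoring peaks matched with 4.04% (3.74 to 4.36). Within 100 kb, however, 82.0% of the sites had a Snail peak (80.7 to 83.4), and 75.5% of the lower-scoring peaks did (74.8 to 76.1). Between genes, high-scoring Slug-only peaks had a median gap of 40.0 kb (35.5 to 45.1).

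Host genes often had Snail peaks elsewhere. Of the 2188 protein-coding hosts, 57.7% (55.6 to 59.8) had a Snail peak no more than 1 kb from an end and 53.4% (51.3 to 55.5) had one inside, at another place. Either was true of 80.6% (78.9 to 82.2), against 73.2% of genes with lower-scoring Slug-only peaks only and 66.1% of genes with none, both weighted to the lengths of the host genes. Genes that held only lower-scoring Slug-only peaks had a Snail peak at an end in 54.2% of cases, or 51.8% when weighted to the lengths of the host genes. For genes with no inner Slug-only peak the weighted share was 51.6%. A Snail peak inside the gene was present in 46.9% and 33.1% of these groups at the lengths of the hosts. By length class, only in the class from 65.3 to 120 kb did the interval of the hosts lie above those of both other groups. There, 66.3% (62.0 to 70.4) of hosts, 54.2% (50.9 to 57.4) of genes with lower-scoring peaks only and 57.0% (52.8 to 61.1) of genes with none had a Snail peak at an end. In the longest class the shares were 46.2%, 45.2% and 43.4%, with overlapping intervals. A shared Slug peak with a score of 200 or more lay inside 7.82% of hosts, 6.17% of genes with lower-scoring peaks only and 3.58% of genes with none, the last 2 weighted to host lengths. Among all tested genes 2.52% held one.

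**Figure D3:**
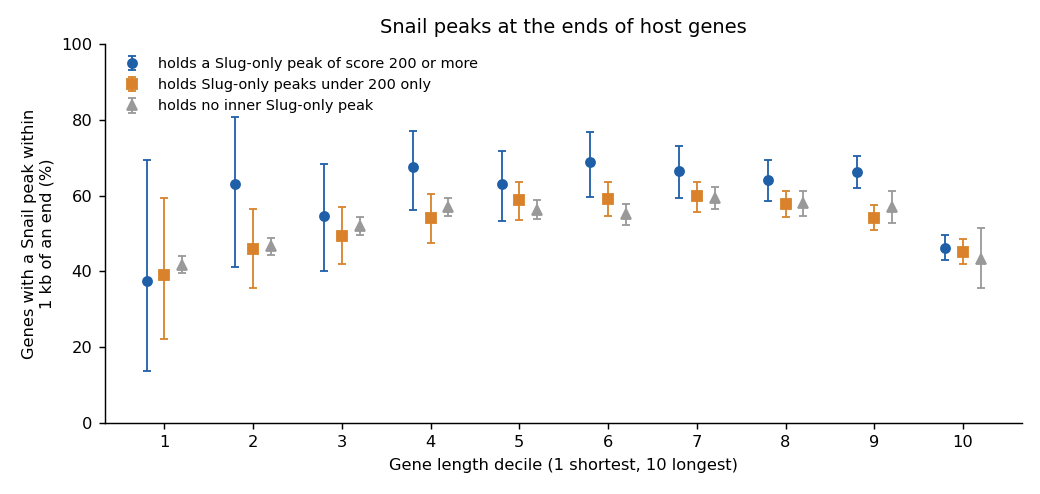
Share of protein-coding genes with a Snail peak no more than 1 kb from an end, by gene length decile, for genes that held a Slug-only peak of score 200 or more, genes with Slug-only peaks under 200 only, and genes with none; bars are 95% Wilson intervals. In the ninth decile the hosts stood at 66.3%, above the other groups, and in the longest decile all groups lay between 43.4% and 46.2%.

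Gene lists were counted next, each against the share of all protein-coding genes of the same length classes that were hosts, because the share of hosts followed gene length so closely. Over the 17 lists of EMT, signalling and mammary genes, 110 of 392 different genes were hosts (28.1%, 23.8 to 32.7), against 11.4% of all protein-coding genes and 21.0% at equal length. In the 4 control lists 21 of 92 were hosts (22.8%, 15.4 to 32.4), against 18.9% at equal length. The observed counts were thus 1.34 and 1.21 times those at equal length. The interval of the study lists lay above their share at equal length, and that of the controls included theirs. The intervals of the raw shares overlap, but these shares have different values at equal length, so the overlap does not compare the ratios. With 20 classes by inner sequence in place of 10 by gene length, the ratios were 1.32 and 1.102. No interval was computed for the ratios, and the lists were chosen with earlier results of these data known. A difference between the study lists and the controls was therefore not resolved.

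**Figure D4:**
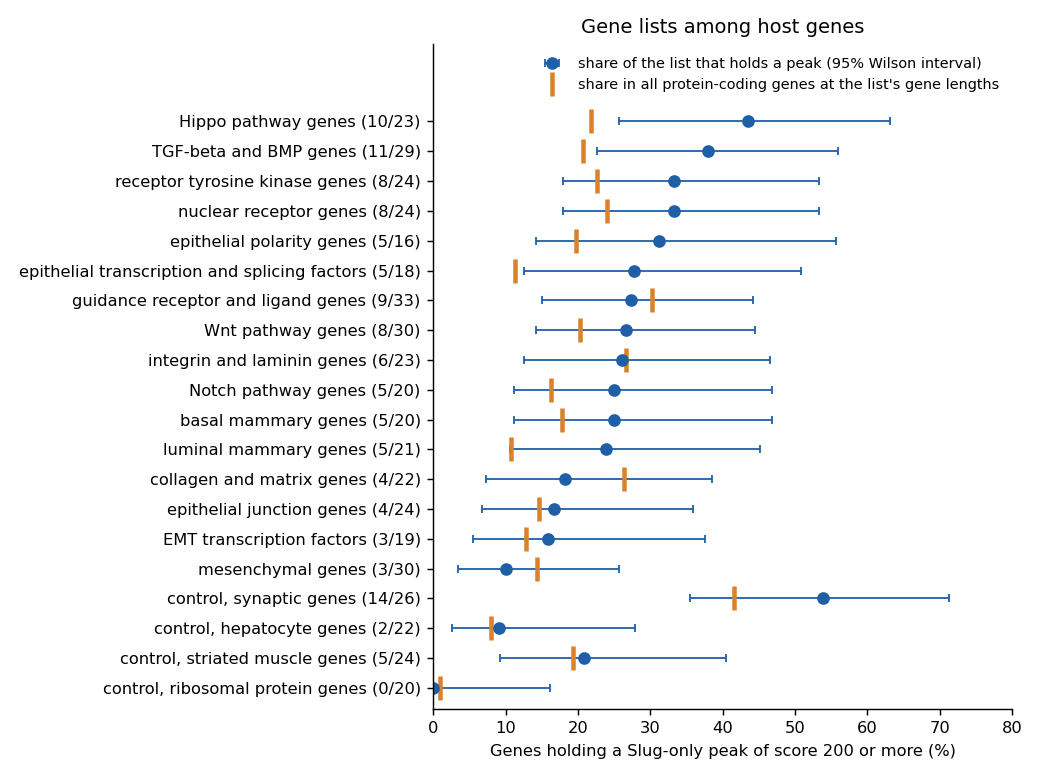
Share of the genes of 20 of the lists that held at least 1 Slug-only peak of score 200 or more inside the gene, with 95% Wilson intervals and the counts in brackets; vertical marks give the share among all protein-coding genes at the gene lengths of the list. The intervals of the Hippo, TGF-beta and epithelial factor lists lay above their marks, and those of the other lists drawn included theirs. The lists were chosen with earlier results of these data known, so this describes them and tests nothing. At a lowest score of 300 no epithelial factor host and few of the Hippo hosts were left.

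Hippo pathway genes, which control growth through the coactivators Yap1 and Wwtr1 (TAZ) and the TEAD factors, were hosts in 10 of 23 cases (43.5%, 25.6 to 63.2), against 21.8% at equal length. Both coactivators were among them. Yap1 held sites with scores of 291 and 274, and Wwtr1 1 with a score of 230 that lay 979 bp from a Snail peak. Of the TEAD genes, Tead4 (359), Tead3 (263) and Tead1 (234) each held 1. Ptpn14, a phosphatase that restrains Yap1, had the highest-scoring site of the list, 915 at chr1:189815123-189815498, and a second site of 212. The strongest Slug peak inside Ptpn14 scored 1382 but overlapped a Snail peak. Fat1, an atypical cadherin upstream of the pathway, followed with 409. The kinase gene Lats2 held 222 and 214, the angiomotin family gene Amotl1 259 and 250, and Vgll4, which competes with Yap1 for TEAD, 227. Of the 10 hosts, 8 also had a Snail peak at an end, the exceptions being Fat1 and Amotl1, against 57.7% of all protein-coding hosts, so that 8 of 10 is no result about the list.

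TGF-beta and BMP genes were hosts in 11 of 29 cases (37.9%, 22.7 to 56.0), against 20.6% at equal length. Among ligands, Bmp7 held the top score, 1167 at chr2:172868929-172869443, only 1.17 kb from a gene end, and Tgfb2 held 227. Among receptors, Acvr1b scored 366, Tgfbr2 334, Bmpr2 243 and Bmpr1b 227. The Tgfbr2 site, at chr9:116119750-116120015, lay 55.5 kb downstream of the 5′ end, and the other 5 Slug peaks of that gene scored between 53.2 and 75. Of the Smads, the common mediator Smad4 held 308 and the BMP-regulated Smad1 262. Smad3, which transmits TGF-beta signals, held 4 Slug peaks that all stayed below the threshold, the best at 166. Hosts that inhibit the pathway were the ubiquitin ligase genes Smurf1 (381 and 318) and Smurf2 (345), and the corepressor gene Skil (547). These 2 lists are the only ones besides the epithelial factors whose lower interval bound was above the share at equal length in 10 classes. With the 20 classes by inner sequence the luminal list joined them, with a lower bound of 10.6% against 10.2%. In all, 21 lists were counted, chosen with earlier results of these data known and with no allowance for their number. These bounds therefore describe the lists and test nothing.

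Epithelial transcription and splicing factors were hosts in 5 of 18 cases (27.8%, 12.5 to 50.9), against 11.3% at equal length. They were Gata3, a luminal cell factor (279), Grhl1 (278), Elf5, a factor of alveolar differentiation (259), Tfcp2l1 (224) and Klf5 (211). All scored below the median of 288. The Grhl1 site lay 145 bp from a weak Snail peak with a score of 52.5, and thus failed to overlap by a narrow margin. Luminal mammary genes were hosts in 5 of 21 cases (23.8%, 10.6 to 45.1), against 10.8% at equal length, and 2 of the 5, Gata3 and Elf5, are on both lists. The others were Stat5b, a mediator of prolactin signals (341), Tnfsf11, which encodes RANK ligand (302), and the oestrogen receptor gene Esr1 (298). Tnfsf11 also held a stronger Slug peak, of 329, that overlapped a Snail peak. The list drawn up as basal mammary genes gave 5 of 20 (25%, against 17.8% at equal length). Its highest-scoring hosts were Bcl11b, a zinc finger factor, at 571 and Inpp4b, a lipid phosphatase gene, at 384 and 217. The remaining hosts were Igfbp2 (304), Mylk (291 and 221) and Nrg1 (285 and 233). Being on that list does not show that a gene marks basal cells, and expression was not measured here. Neither Trp63, the p63 gene of basal cells, nor Egfr was a host, and their best inner Slug peaks scored 130 and 136.

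Among EMT and mesenchymal genes the share of hosts could not be told from that at equal length. Of 19 EMT transcription factors 3 held a site (15.8%, 5.52 to 37.6, against 12.8% at equal length), namely Zeb2, Tcf4 and Twist2, with scores of 524, 400 and 290. The Zeb2 site lay at chr2:45021432-45021711, 1.53 kb from a gene end inside the span of Zeb2. The strongest Slug peak of Zeb2 scored 864 but overlapped a Snail peak. Zeb1 had 4 inner Slug peaks with scores between 86.4 and 176 and so no site. Mesenchymal genes were hosts in 3 of 30 cases (10.0%, 3.46 to 25.6, against 14.3% at equal length): Fn1, the fibronectin gene, with 567 at chr1:71609083-71609389, Cdh2, the N-cadherin gene, with 341, and Nt5e with 223. The Fn1 site was the only Slug peak inside that gene. Cd44, a hyaluronan receptor gene, had an inner Slug peak of 303 that overlapped a Snail peak. Collagen and matrix genes gave 4 of 22 (18.2%, 7.31 to 38.5, against 26.3%). The 3 sites of Col18a1 scored 612, 564 and 274, and those of Ltbp1, which stores latent TGF-beta in the matrix, 415, 326 and 229.

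**Figure D5:**
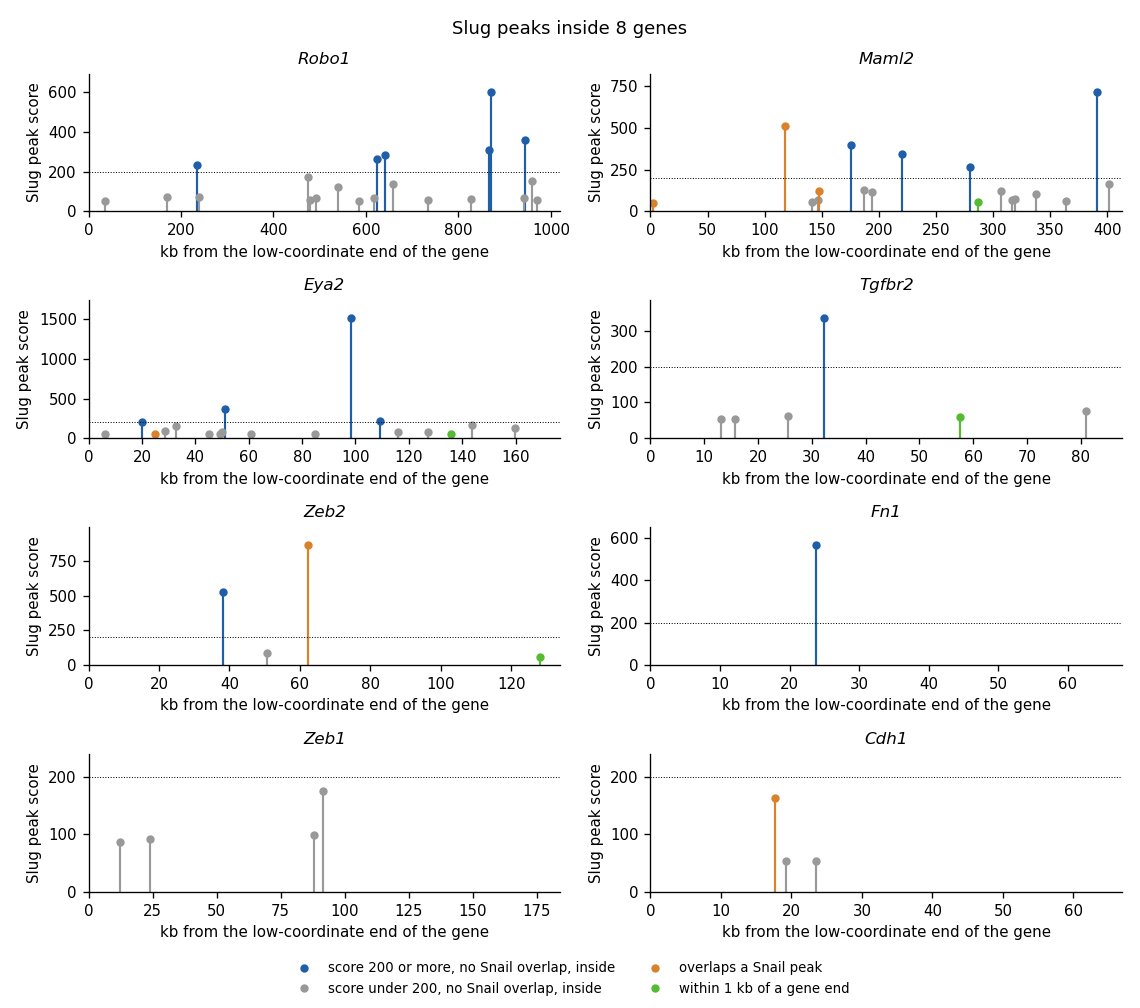
Slug peaks inside 8 genes, as score against distance in kb from the low-coordinate end of the gene; colours mark sites of score 200 or more without Snail overlap, lower-scoring peaks, peaks that overlap a Snail peak and peaks within 1 kb of any gene end, and the dotted line is the threshold of 200. Robo1 has 6 high-scoring sites, Maml2 and Eya2 have 4 each, Tgfbr2, Zeb2 and Fn1 have 1 each, and Zeb1 and Cdh1 have none.

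Epithelial junction genes were hosts in 4 of 24 cases (16.7%, 6.68 to 35.9, against 14.6% at equal length). Nectin1, an adhesion gene of adherens junctions, held 1208 at chr9:43787119-43787474 and a second site of 261. Tjp1, the gene of the tight junction scaffold ZO-1, held 526, 278 and 214. Epcam held 351 at 652 bp from a Snail peak, and the tight junction gene Ocln 214. Cdh1, the E-cadherin gene, had no site: its inner Slug peaks scored 163, 54.3 and 53.0, and the first overlapped the Snail peak. Polarity genes were hosts in 5 of 16 cases (31.2%, 14.2 to 55.6, against 19.7%), with Ezr at 376, Pard3b at 356, Patj at 272, Llgl2 at 255 and Pard3 at 229. Pard3 held 21 Slug peaks, of which this was the only one to reach 200.

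Wnt genes were hosts in 8 of 30 cases (26.7%, against 20.3% at equal length). Gsk3b, the kinase that marks beta-catenin for degradation, scored 728 and 208, and the scaffold gene Apc 413 and 223. Tcf7l1, a repressor among the TCF factors, had 5 sites within 163 kb, with scores of 357, 270, 233, 216 and 201, and its relative Tcf7l2 had 3. In the Notch list 5 of 20 were hosts (25%, against 16.3%): the coactivator genes Maml2, with 4 sites up to 715, and Maml3, with 3 up to 595, the receptor gene Notch3 (669), Rbpj (306), which encodes the DNA-binding partner of Notch, and the protease gene Adam17 (218).

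Receptor tyrosine kinase genes were hosts in 8 of 24 cases (33.3%, against 22.6% at equal length), led by Erbb4 with 736 and by Met, the hepatocyte growth factor receptor gene, with 399 and 212. Nuclear receptor genes also gave 8 of 24 (33.3%, against 24.1%), led by the thyroid hormone receptor gene Thra (642) and the retinoic acid receptor gene Rara (514), whose site lay 434 bp from a Snail peak. Integrin and laminin genes gave 6 of 23 (26.1%, against 26.6%), with Itgb6, an epithelial integrin gene, at 826 and Itga2 at 584. Guidance genes gave 9 of 33 (27.3%, against 30.2%), with Slit3 at 417 after Robo1. Of the controls, synaptic genes were hosts in 14 of 26 cases (53.8%, 35.5 to 71.2, against 41.6% at equal length), more than any study list described here, with Rbfox1 at 666 and Grin2a at 604. Their median length was 477 kb. Striated muscle genes gave 5 of 24 (20.8%, against 19.3%), among them Cacna1s at 370. Hepatocyte genes gave 2 of 22 (9.09%, against 8.02%), Ass1 with 423 and 348 and Cps1 with 320. Ribosomal protein genes gave 0 of 20, which allows a share of up to 16.1%, and 0.869% was the share at equal length.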

How the data were processed

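The deposited files used were the peak lists of the Slug and the Snail ChIP library; the 2 input libraries were not used here. Per the submitters' processing notes, Bowtie, MACS 1.4.2 and mm10 were used; the settings were not given in the sources used here, nor were controls. A row of the deposited lists gives coordinates with a score by the authors' peak caller, whose scale is not stated; it depends on library depth, which is unknown. Starts were converted to 1-based positions. Genes, strands and start windows came from RefSeq tables of GRCm38.p6 (49943 genes, 21887 protein-coding); no genome, exons or introns were used, so the planned E-box shares over peaks were not run. Start windows of chromosome 18 were not analysed here. A gene was a host when it held a peak's midpoint. Intervals are 95% Wilson, Poisson or order-statistic intervals. Calculations used Python 3.11.15, numpy 2.4.6, pandas 2.3.3, scipy 1.17.1 and matplotlib 3.10.9, and the selection was checked on simulated data. Sites and 21 gene lists with 511 memberships were chosen with earlier results of these data known. Named hosts were protein-coding genes: the 10 with the highest score, the 5 with the most sites, the 5 densest with 3 or more, the 2 highest-scoring of each list and 10 fixed genes; other list members were named after their values were seen. Some named items, and 1 list on its own, are not reported here; totals over lists include them.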

Additional observations from a re-analysis of the deposited data

How the results depend on the processing

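The number of sites, their width, their distances to gene ends and to Snail peaks, the hosts with several sites, the hosts among list genes and the hosts with a Snail peak at an end were recomputed under 6 other definitions: a lowest score of 150 or 300, a Snail peak within 1 kb or a reciprocal overlap of 50% as the mark of a shared site, a limit of 5 kb from gene ends, and protein-coding genes only. The number of sites was 4710 from a score of 150 and 1394 from 300. From 300, 65 genes of the study lists were hosts. None of the epithelial factor hosts was left, and of the Hippo hosts only Ptpn14, Fat1 and Tead4. The TGF-beta and BMP hosts left were Bmp7, Skil, Smurf1, Acvr1b, Smurf2, Tgfbr2 and Smad4. Shares at equal length were not computed for single lists at that score. The share of hosts with 2 or more sites was 26.0% from a score of 150 and 10.6% from 300. Median width was 269 bp from 150 and 291.5 bp from 300. The median distance to a gene end was 18.4 kb with the 5 kb limit and 21.2 kb with protein-coding genes only. The median gap to a Snail peak was 25.7 kb when peaks within 1 kb counted as shared, 21.0 kb with reciprocal overlap and 28.7 kb with the 5 kb limit. The cause of these shifts beyond the change of definition was not tested. Without scores of 1500 or more 3094 sites were left. The share of hosts with a Snail peak at an end stayed between 56.1% and 57.7% in all 6. List ratios with 20 classes by inner sequence and the X chromosome densities at other scores were added after seeing the data; the other densities, shares and spacings were given under 1 definition only. The planned motif alternatives were not run, for want of peak sequence. No paired analysis was possible because there was 1 library of each kind. Depth is unknown, so a missing Snail peak cannot be told from one below detection.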
